A study of Homo sapiens with 16 samples.

Results

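Transcripts of the genes GATA2, ERG, FLI1, TAL1, LYL1, LMO2, RUNX1 and MYB, which encode transcription factors of blood stem and progenitor cells, were followed through 16 RNA-Seq libraries of MUTZ-3 cells. The 8 genes make up 8 of the 60623 genes counted and are given by name. No measured value enters this rule, but the list was drawn up with earlier results of these data known, so counts of members called are not those of an unselected list. Each was detected in every library, and each passed the filter on low counts in both experiments. MUTZ-3 is an established AML line with inv(3), the inversion that moves a distal enhancer of GATA2 next to EVI1 (gene symbol MECOM). All cells were grown with GM-CSF and with medium conditioned by 5637 cells. In the inhibitor experiment, cells were given an inhibitor of PARP enzymes (PARPi), olaparib at 10 µM or talazoparib at 1 µM, or the vehicle DMSO, and were harvested at 12, 24 or 48 h. Untreated cells at 0 h gave 1 library. In the knockdown experiment the cells were transduced with the lentiviral vector pLKO.1 carrying a non-targeting control shRNA (NTC) or 1 of the EVI1 shRNAs shEVI1-2531 and shEVI1-2532, were selected with puromycin, and were harvested at day 3 or day 6. The deposited tables of shEVI1-2531 carry another clone number than its label, and the label was followed. Each condition was sequenced once, so no group has replicate libraries.

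These factors act in shared complexes on the enhancers of blood stem cells. TAL1 and LYL1 are basic helix-loop-helix proteins that pair with E proteins on E-box motifs, LMO2 bridges such pairs to GATA factors through LDB1, and GATA2 is the GATA factor of early progenitors. ERG and FLI1 belong to the ETS family, RUNX1 binds DNA together with CBFB, and MYB is a DNA-binding activator of progenitor growth that recruits EP300 and CREBBP.

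ERG and TAL1 had the largest fitted changes of the 8 genes with shEVI1-2532. The 250 bases upstream of 1 transcript start of each gene are shown because both windows hold the letters bound by GATA factors, and GATA2 is 1 of the 8 genes. The ERG window, chr21:38498505-38498754 in GRCh38.p14, minus strand, lies upstream of an internal start, within the ERG span and outside exons. The TAL1 window, chr1:47232336-47232585, minus strand, lies upstream of the TAL1 span. Capitals mark matches, on either strand, to the letters AGATAA for these factors, CCGGAA for ETS factors and CAGNTG for the E-box, and the sequences are those of RefSeq, written 5′ to 3′ on the strand of the gene.
ERG: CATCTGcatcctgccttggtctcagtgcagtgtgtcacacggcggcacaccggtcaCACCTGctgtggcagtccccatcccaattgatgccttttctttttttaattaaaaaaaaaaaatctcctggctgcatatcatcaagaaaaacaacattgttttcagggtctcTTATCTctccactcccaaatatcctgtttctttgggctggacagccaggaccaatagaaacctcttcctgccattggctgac
TAL1: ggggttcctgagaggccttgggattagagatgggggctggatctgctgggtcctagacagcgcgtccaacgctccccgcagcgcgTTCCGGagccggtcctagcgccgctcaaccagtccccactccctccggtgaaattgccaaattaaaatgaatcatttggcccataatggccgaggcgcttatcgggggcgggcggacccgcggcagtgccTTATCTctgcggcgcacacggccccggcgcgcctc
AGATAA, read here as TTATCT on the opposite strand, occurred in 9.17% of 35116 promoter windows of the same length. CCGGAA occurred in 14.5%, CAGNTG in 42.5%, the RUNX letters TGTGGT in 11% and the MYB letters TAACNG in 17.6% of them. Among the 11 windows of 6 matched genes (GATA2, ERG, TAL1, LYL1, RUNX1 and MYB), AGATAA was found only in the TAL1 window and in the ERG window, a second ERG window that overlaps it included. Of the windows not shown, the other TAL1 window held 3 matches to the RUNX letters. Another ERG window held 1 match to the MYB letters, and the RUNX1 window held 1 to the ETS letters. All these matches are descriptions of sequence and do not show binding.

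The libraries held 55999673 to 72681943 counts in the inhibitor experiment and 95523038 to 120716213 counts in the knockdown experiment. Levels are counts per 1000000 counts of a library (CPM). The target of the shRNAs checked the labels. MECOM stood at 42.4 CPM in NTC, 12.3 CPM with shEVI1-2531 and 4.51 CPM with shEVI1-2532 at day 3, and at 44.2, 18.5 and 4.03 CPM at day 6. In the inhibitor experiment MECOM measured 28.4 CPM in untreated cells, 51.1, 50.9 and 63.6 CPM in DMSO at 12, 24 and 48 h, 46.1, 40.8 and 21.0 CPM with olaparib, and 46.9, 31.4 and 8.54 CPM with talazoparib. Marker genes of progenitors, monocytes and other cells also differed between the groups. The summed level of 8 stem and progenitor surface genes lay between 494 and 944 CPM in NTC. It lay between 174 and 181 CPM with shEVI1-2531, and between 33.2 and 41.0 CPM with shEVI1-2532. CD34 led this sum in NTC and with shEVI1-2531, and TIE1 led it with shEVI1-2532. TIE1 stood at 20.9 and 56.05 CPM in NTC at day 3 and day 6, and at 20.0 and 19.5 CPM with shEVI1-2532. KIT went against this sum with shEVI1-2531, at 38.4 and 44.1 CPM at day 3 and day 6 against 35.6 and 22.2 CPM in NTC. The summed level of 7 monocyte genes lay between 379 and 515 CPM in NTC. It lay between 1258 and 1380 CPM with shEVI1-2531, and between 4412 and 5889 CPM with shEVI1-2532. LYZ led this sum in the knockdown libraries other than NTC at day 6, where it stood at 183 CPM and CSF1R at 270 CPM. With shEVI1-2531 CSF1R stood at 93.1 and 189.5 CPM at day 3 and day 6, against 128 and 270 CPM in NTC. With shEVI1-2532 it stood at 190 and 178 CPM. In the inhibitor experiment the monocyte genes summed to 501 to 645 CPM in DMSO, 534 to 2175 CPM with olaparib and 635 to 3975 CPM with talazoparib. LYZ carried this sum at 24 and 48 h, whereas CSF1R stood at 241 CPM in DMSO at 48 h and at 161 and 158 CPM with olaparib and talazoparib. The stem and progenitor genes summed to 622 to 840 CPM in DMSO, 353 to 619 CPM with olaparib and 184 to 737 CPM with talazoparib. KIT was above DMSO at 12 h, at 133 and 112 CPM with olaparib and talazoparib against 95.9 CPM. At 24 h it stood at 116 and 71.1 CPM against 98.95 CPM, and at 48 h at 55.2 and 19.0 CPM against 89.0 CPM. The sum of 5 megakaryocyte genes was 87.6 to 109 CPM in DMSO, 125 to 216 CPM with olaparib, 141 to 234 CPM with talazoparib, 82.3 to 188 CPM in NTC, 114 to 149 CPM with shEVI1-2531 and 31.6 to 55.1 CPM with shEVI1-2532. The ranges of this sum thus lay above that of DMSO with both inhibitors and below that of NTC with shEVI1-2532. ITGA2B carried the sum, at 101.5, 198.9 and 208.6 CPM in DMSO, olaparib and talazoparib at 48 h. PPBP was also higher with both inhibitors at that hour. GP9 was lower, at 1.554, 1.196 and 0.7321 CPM in the same libraries, and PF4 reached 0.084 CPM at most. With shEVI1-2531 PPBP stood at 20.5 and 13.3 CPM at day 3 and day 6, against 1.95 and 2.74 CPM in NTC. GP9 was lower than NTC with this shRNA, at 0.262 and 0.683 CPM against 1.56 and 3.25 CPM on these days. GP1BA was at 0.649 and 1.58 CPM against 1.26 and 2.24 CPM, and ITGA2B at 92.4 and 133.5 CPM against 77.6 and 180 CPM. The sum of 6 mast cell and basophil genes was 25.7 to 43.2 CPM in DMSO and 47.7 to 69.7 CPM with the inhibitors. It was 34.2 to 39.9 CPM in NTC and 46.2 to 64.1 CPM with the shRNAs. Of these genes, CPA3 and MS4A2 reached 0.0175 and 0.0105 CPM at most. HDC went against this sum with shEVI1-2532, at 6.65 and 16.9 CPM at day 3 and day 6 against 23.9 and 28.0 CPM in NTC. The sum of 4 endothelial genes was 55.4 to 101 CPM in DMSO and 91.0 to 174 CPM with the inhibitors. It was 34.7 to 47.2 CPM in NTC and 50.5 to 85.6 CPM with the shRNAs. PECAM1 carried this sum, while VWF and KDR reached 1.733 and 0.01376 CPM at most. CDH5 went against this sum at 48 h, at 4.317, 1.013 and 0.7143 CPM in DMSO, olaparib and talazoparib. With talazoparib CDH5 was not lower at 12 and 24 h (2.684 and 2.415 against 2.31 and 2.408 CPM). With olaparib it was (1.824 and 1.843 CPM). With shEVI1-2532 CDH5 stood at 0.3988 and 0.2386 CPM at day 3 and day 6, against 1.856 and 6.132 CPM in NTC. It was also lower with shEVI1-2531. The sum of 5 epithelial genes was 13.4 to 22.1 CPM in DMSO and inhibitor libraries and 10.35 to 16.7 CPM in NTC. It was 15.7 to 19.1 CPM with shEVI1-2531 and 29.8 to 32.2 CPM with shEVI1-2532. Only KRT8 and KRT18 carried it, while EPCAM and CDH1 reached 0.054 and 0.015 CPM at most and KRT5 was at 0 in all 16 libraries. The sum of 4 lymphoid genes was 5.27 to 9.73 CPM in DMSO and inhibitor libraries, 7.46 to 11.1 CPM in NTC, 2.09 to 2.24 CPM with shEVI1-2531 and 3.23 to 3.79 CPM with shEVI1-2532. The 6 erythroid genes summed to 1.23 CPM at most, with HBA2 at 0 in all 16 libraries. The part of these markers in the results below was not tested, and in such bulk libraries fewer cells of a type and less RNA per cell cannot be told apart.

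Per length of exon, LYL1 was the most abundant of the 8 transcripts and ERG the least. In DMSO at 24 h, the level per kb of exon was 62.2 CPM for LYL1, 44.9 for MYB, 18.0 for FLI1, 16.8 for LMO2, 16.4 for TAL1, 14.1 for GATA2, 11.6 for RUNX1 and 4.29 for ERG. Over the 6 libraries without inhibitor or EVI1 shRNA, the levels per kb ranged from 46.9 to 76.7 CPM for LYL1, 18.8 to 49.8 for MYB, 14.0 to 23.8 for FLI1, 13.4 to 23.6 for TAL1, 13.8 to 19.0 for LMO2, 12.2 to 35.0 for GATA2, 5.73 to 12.4 for RUNX1 and 3.09 to 6.08 for ERG. Neighbours in this order overlapped in their ranges, although within each library LYL1 was the highest and ERG the lowest of the 8. The spread between control libraries was widest for GATA2, at 2.88-fold from the lowest to the highest, and MYB, at 2.65-fold, and narrowest for LMO2, at 1.37-fold.

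GATA2 and MYB differed most between untreated and DMSO cells. GATA2 stood at 156 CPM in untreated cells and at 71.8, 62.9 and 58.8 CPM in DMSO at 12, 24 and 48 h. MYB stood at 103 CPM in untreated cells and at 274, 246 and 227 CPM in DMSO. Every DMSO library was thus lower for GATA2 and higher for MYB than the untreated library. The log2 ratio of DMSO at 48 h to untreated cells was -1.41 for GATA2 (95% counting interval -1.46 to -1.36) and 1.14 for MYB (1.10 to 1.18). Vehicle and hours in culture cannot be told apart here, and with 1 library a condition these intervals cover counting error only. Between NTC at day 3 and day 6, GATA2 went from 54.2 to 122 CPM, ERG from 23.4 to 46.1 CPM, TAL1 from 76.5 to 134 CPM, FLI1 from 114 to 194 CPM and RUNX1 from 89.2 to 147 CPM. MYB stood at 168 and 165 CPM in the same libraries. The log2 ratio of NTC at day 6 to NTC at day 3 had a median of 0.745 over the 8 genes, with 1.17 as the highest. Its median over 17996 genes was 0.18, so each shRNA library is set against NTC of its own day.

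To see whether PARP inhibition changes the stem-cell factors, inhibitor libraries were set against DMSO of the same hour. ERG, an ETS factor needed for stem-cell maintenance, was the factor that departed most from DMSO, at 24 and 48 h. ERG stood at 32.6, 32.6 and 33.8 CPM in DMSO at 12, 24 and 48 h, and at 23.7 CPM in untreated cells. With 10 µM olaparib it stood at 26.6, 19.6 and 9.98 CPM at these hours, and with 1 µM talazoparib at 33.1, 18.0 and 2.54 CPM. The DMSO libraries were level. At 12 h talazoparib did not differ from its control beyond counting error, while olaparib had a log2 ratio of -0.29 (95% counting interval -0.39 to -0.20). All 4 inhibitor libraries of 24 and 48 h lay below every DMSO library and below the untreated one. At 48 h ERG was at 29.5% of DMSO with olaparib, a log2 ratio of -1.76 (95% counting interval -1.89 to -1.63), and at 7.49% with talazoparib, a log2 ratio of -3.74 (-3.99 to -3.49). The doses of the inhibitors differ, so their values are set side by side without a comparison. ERG was the 1 of 8 factors that was more than 2-fold lower at 48 h with olaparib, where 10.5% of all genes were, and likewise with talazoparib, where 20.1% of all genes were.

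Among the 8 factors, the inhibitor effect on ERG and on LMO2 changed between 12 and 48 h. By the quasi-likelihood test of edgeR, adjusted after Benjamini-Hochberg, the log2 difference from DMSO changed by -1.18 per doubling of hours for ERG (SE 0.137, adjusted p = 1.9e-15) and by 0.36 for LMO2 (SE 0.132, adjusted p = 0.0351), as the mean of both inhibitors. LMO2, the bridging protein, stood at 58.9, 52.2 and 57.2 CPM in DMSO at 12, 24 and 48 h, at 54.0, 66.4 and 67.9 CPM with olaparib and at 51.8, 67.7 and 78.4 CPM with talazoparib. The inhibitor libraries were thus below DMSO at 12 h and above it at 24 and 48 h. These 2 of 8 factors compare with 19.8% of 17218 genes called in this test. The model left 2 residual degrees of freedom, and its error is the departure of the hours from a straight line, pooled between genes. The SE of the 8 factors thus lay close together, from 0.129 for TAL1 to 0.137 for ERG. The p-values rest on this shared spread and are not those of 2 degrees of freedom of a single gene. Pooling both inhibitors as 1 group ended the call of ERG (-1.05, adjusted p = 0.087) and of LMO2 (0.36, adjusted p = 0.0806). That of LMO2 was also lost on library totals (0.25, adjusted p = 0.219) and without the filter on low counts (0.36, adjusted p = 0.0786).

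FLI1, the ETS factor most similar to ERG, stood at 162, 147 and 166 CPM in DMSO, at 141, 126 and 84.4 CPM with olaparib and at 159, 120.2 and 85.1 CPM with talazoparib. Both 48 h inhibitor libraries lay below all other libraries of this experiment, with log2 ratios of -0.98 (95% counting interval -1.03 to -0.93) for olaparib and -0.97 (-1.02 to -0.92) for talazoparib. The change with time of FLI1, -0.32 per doubling of hours (SE 0.130, adjusted p = 0.0613), did not pass the threshold. It passed on library totals (-0.43, adjusted p = 0.0144) and with time taken in hours (-0.018 per hour, adjusted p = 0.0194). Within single libraries, which no scaling touches, the ERG count was 20.2%, 22.1% and 20.4% of the FLI1 count in DMSO at the 3 hours. This share was 18.8%, 15.5% and 11.8% with olaparib and 20.9%, 14.9% and 2.98% with talazoparib.

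At 24 h GATA2 and TAL1 were above DMSO with both inhibitors, and at 48 h TAL1 was below it with both. GATA2 stood at 71.8, 62.9 and 58.8 CPM in DMSO, at 84.7, 82.3 and 57.5 CPM with olaparib and at 86.7, 74.7 and 53.3 CPM with talazoparib. TAL1 stood at 121, 93.7 and 94.4 CPM in DMSO, at 118, 128 and 72.8 CPM with olaparib and at 125, 116 and 60.5 CPM with talazoparib. The inhibitor libraries of 12 and 24 h overlapped the DMSO range for TAL1 or lay above it, and both 48 h libraries lay below it. The log2 ratios of GATA2 at 48 h, -0.03 with olaparib and -0.14 with talazoparib, turned to 0.16 and 0.13 when libraries were scaled with TMM, so no direction is given for GATA2 at that hour. On library totals the median of all genes at 48 h was -0.19 with olaparib and -0.26 with talazoparib. The change with time did not pass the threshold for GATA2 (-0.06 per doubling of hours, adjusted p = 0.794) or TAL1 (-0.15, adjusted p = 0.471).

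MYB and RUNX1 were below DMSO of the same hour with both inhibitors at each hour, whereas LYL1 overlapped its control. The 6 pairs of each gene share 3 DMSO libraries and are not independent. MYB stood at 274, 246 and 227 CPM in DMSO, 228, 224 and 179 CPM with olaparib and 213, 199 and 147 CPM with talazoparib. RUNX1 stood at 193, 181 and 142 CPM in DMSO, 178, 167 and 95 CPM with olaparib and 181, 145 and 112 CPM with talazoparib. Their lowest log2 ratios were -0.62 for MYB, with talazoparib at 48 h, and -0.58 for RUNX1, with olaparib at 48 h. LYL1 stood between 137 and 165 CPM in the 6 inhibitor libraries and at 158, 194 and 154 CPM in DMSO, and its groups overlapped. At 48 h its log2 ratio with olaparib turned from -0.04 to 0.14 with TMM. Their changes per doubling of hours, 0.18 for LYL1, -0.07 for RUNX1 and 0.02 for MYB (adjusted p = 0.379, 0.774 and 0.940), did not pass the threshold. As a mean over both inhibitors and all 3 hours, 0 of 8 factors were called by edgeR, where 4.17% of 17218 genes were called. GATA2 (0.24, SE 0.088, adjusted p = 0.0958), ERG (-1.14, SE 0.445, adjusted p = 0.113), FLI1 (-0.37, SE 0.127, adjusted p = 0.0848) and MYB (-0.26, SE 0.084, adjusted p = 0.0766) had an unadjusted p under 0.05. The mean effects of TAL1, LYL1, LMO2 and RUNX1 were 0.03, -0.07, 0.26 and -0.18 (adjusted p = 0.880, 0.729, 0.228 and 0.244). DESeq2 called 1 of the 8, MYB (adjusted p = 0.0480). ERG was called by edgeR without the filter on low counts, at -1.14 (adjusted p = 0.0090), and without the 12 h libraries, at -1.65 (adjusted p = 0.0121), and without the 24 h libraries no gene of all tested was called.

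**Figure D1:**
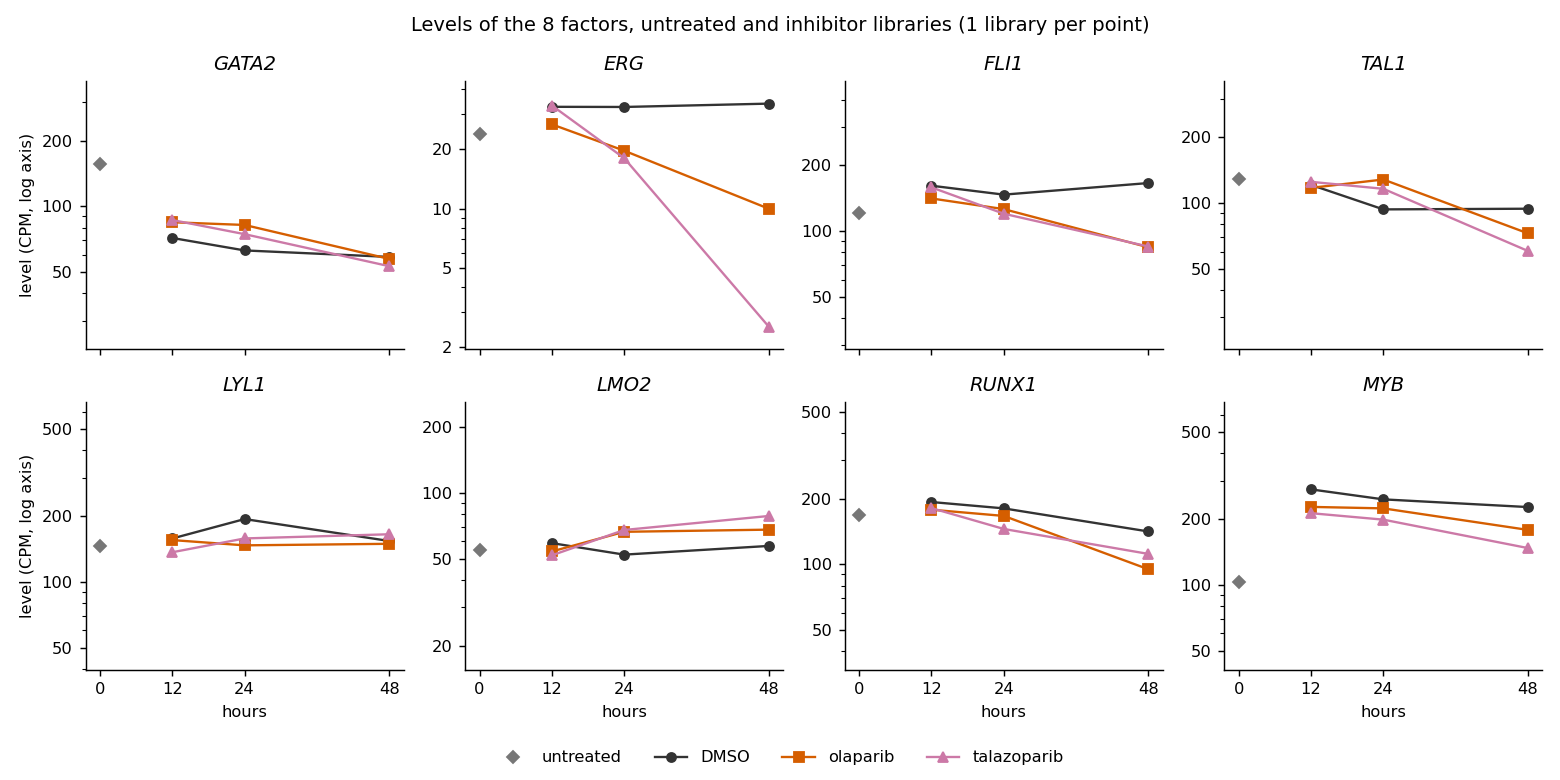
Levels of the 8 factors (CPM, log axis) against hours for untreated cells (diamond), DMSO (circles), 10 µM olaparib (squares) and 1 µM talazoparib (triangles), with 1 library per point and no error bars. ERG lies below DMSO with olaparib from 12 h and with talazoparib from 24 h, and reaches 9.98 and 2.54 CPM at 48 h. FLI1 reaches 84.4 and 85.1 CPM at 48 h, and LMO2 lies above DMSO at 24 and 48 h.

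The EVI1 shRNAs were compared with NTC, with the day as a term, to ask whether the factors depend on the oncogene of the inversion. With shEVI1-2532, which left the least MECOM, ERG, TAL1, GATA2 and FLI1 fell and LMO2 and RUNX1 rose, 6 of 8 factors in all, where 41.1% of 18606 genes were called in either direction. With shEVI1-2531, ERG and FLI1 fell and LMO2 rose, 3 of 8 factors, where 17.4% of genes were called. Of the 8, ERG had the largest fitted change with both shRNAs. The fits use TMM and so measure changes relative to most genes. On library totals the median log2 ratio of all genes to NTC was -0.31 to -0.14 over the 4 pairs, and the calls with shEVI1-2532 then split into 1 higher and 5 lower factors, with RUNX1 no longer called (0.23, adjusted p = 0.142) and MYB called (-0.49, adjusted p = 0.0154). All 4 pairs share the 2 NTC libraries. Without the day in the model the calls of GATA2, FLI1 and RUNX1 with shEVI1-2532 (adjusted p = 0.227, 0.115 and 0.265) and of FLI1 and LMO2 with shEVI1-2531 (adjusted p = 0.317 and 0.1405) were lost, as were the differences between the shRNAs of GATA2, LMO2 and RUNX1 (adjusted p = 0.560, 0.295 and 0.5315).

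ERG stood at 23.4 CPM in NTC, 2.42 CPM with shEVI1-2531 and 0.578 CPM with shEVI1-2532 at day 3. At day 6 it stood at 46.1, 2.14 and 0.338 CPM, the last of these from 34 counts. Every shRNA library lay far below both NTC libraries, and both shEVI1-2532 libraries lay below both of shEVI1-2531. The fitted log2 fold change was -3.73 with shEVI1-2531 (SE 0.311, adjusted p = 2.1e-05) and -5.91 with shEVI1-2532 (SE 0.358, adjusted p = 4.1e-07, by the same edgeR test). The call held in 13 of 13 and in 14 of 14 alternatives. Its difference between the shRNAs was -2.18 (SE 0.335, adjusted p = 0.00075). The ERG count was 20.6% and 23.7% of the FLI1 count in NTC at day 3 and day 6, 3.22% and 2.10% with shEVI1-2531, and 0.913% and 0.383% with shEVI1-2532.

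FLI1 fell less than ERG in each pair. It stood at 114, 75.1 and 63.3 CPM in NTC, shEVI1-2531 and shEVI1-2532 at day 3, and at 194, 102 and 88.1 CPM at day 6. All 4 shRNA libraries lay below both NTC libraries. The fitted log2 fold changes were -0.60 (SE 0.134, adjusted p = 0.0095) and -0.69 (SE 0.134, adjusted p = 0.0014), and the difference between the shRNAs, -0.10 (SE 0.133, adjusted p = 0.634), did not pass the threshold. The call with shEVI1-2531 was lost without NTC at day 6 (-0.44, adjusted p = 0.106) and without shEVI1-2531 at day 6 (-0.47, adjusted p = 0.0955).

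TAL1 separated the shRNAs, whereas its relative LYL1 did not. TAL1 stood at 76.5 CPM in NTC, 60.7 CPM with shEVI1-2531 and 13.9 CPM with shEVI1-2532 at day 3, and at 134, 74.4 and 14.9 CPM at day 6. The shEVI1-2532 libraries were far below all others, while those of shEVI1-2531 lay below the lower NTC library. Against NTC of its own day, the log2 ratio was -0.33 at day 3 and -0.85 at day 6 with shEVI1-2531. With shEVI1-2532 it was -2.46 and -3.18. The fitted log2 fold change was -2.52 with shEVI1-2532 (SE 0.173, adjusted p = 8.5e-07) and -0.44 with shEVI1-2531 (SE 0.163, adjusted p = 0.0885), and the difference was -2.09 (SE 0.171, adjusted p = 1.6e-05). The shEVI1-2531 value passed the threshold in 6 of 13 alternatives. These were library totals (-0.61, adjusted p = 0.0371), no filter on low counts (-0.44, adjusted p = 0.0441), NTC and shEVI1-2531 alone (-0.42, adjusted p = 0.0363), without NTC at day 3 (-0.75, adjusted p = 0.0191) and without either shEVI1-2532 library (-0.42 each, adjusted p = 0.0442 and 0.0425). LYL1 stood at 152, 149 and 131 CPM at day 3 and at 239, 140.5 and 159.9 CPM at day 6, so the groups overlapped, and its fitted values of -0.22 with shEVI1-2531 and -0.10 with shEVI1-2532 (adjusted p = 0.389 and 0.643) did not pass. As a share of the LYL1 count in the same library, TAL1 was 50.5% and 56.1% in NTC, 40.8% and 52.9% with shEVI1-2531, and 10.6% and 9.29% with shEVI1-2532.

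LMO2 was the factor that rose with both shRNAs. It stood at 42.9, 65.8 and 84.2 CPM in NTC, shEVI1-2531 and shEVI1-2532 at day 3, and at 55.4, 82.2 and 105 CPM at day 6. Every shRNA library lay above both NTC libraries. The fitted log2 fold changes were 0.76 (SE 0.129, adjusted p = 0.0018) with shEVI1-2531 and 1.25 (SE 0.131, adjusted p = 1.6e-05) with shEVI1-2532. The difference of 0.49 (SE 0.129, adjusted p = 0.0170) was lost without any 1 of the shRNA libraries (0.42 to 0.52, adjusted p = 0.0723 to 0.134) and on library totals (0.35, adjusted p = 0.0680). Set against TAL1, its partner through the helix-loop-helix domain, LMO2 thus moved the opposite way with shEVI1-2532.

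GATA2 fell with shEVI1-2532. It stood at 54.2, 46.5 and 24.6 CPM in NTC, shEVI1-2531 and shEVI1-2532 at day 3, and at 122, 81.3 and 57.2 CPM at day 6. The shEVI1-2532 libraries were at 45.3% and 46.9% of NTC of their day, but the one of day 6 lay above NTC of day 3. The fitted log2 fold change was -0.81 (SE 0.152, adjusted p = 0.0012) with shEVI1-2532 and -0.23 (SE 0.151, adjusted p = 0.335) with shEVI1-2531. Their difference, -0.58 (SE 0.152, adjusted p = 0.0158), was lost without shEVI1-2531 at day 3 (-0.36, adjusted p = 0.243) and without shEVI1-2532 at day 3 (-0.42, adjusted p = 0.200). GATA2 lies at chr3:128479427-128493185 in GRCh38, minus strand, on the 3q21 side of the inversion. The antisense gene GATA2-AS1, which overlaps it, had 11.3% to 25.0% as many counts as GATA2 over the 16 libraries, and the strand setting of the counting was not given in the sources used here. In the shRNA libraries this share was 12.8% to 14.9%, against 13.9% and 17.7% in NTC. Antisense neighbours of FLI1 (SENCR) and TAL1 (AL135960.1) reached 5.07% and 4.15% of their counts.

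RUNX1 was above NTC with shEVI1-2532, and MYB, with TMM scaling, was not called with either shRNA. RUNX1 stood at 89.2, 88.1 and 105 CPM at day 3 and at 147, 143 and 172 CPM at day 6. The shEVI1-2531 libraries were level with NTC of their day and the shEVI1-2532 libraries above it, and RUNX1 rose by 0.54 on the log2 scale with shEVI1-2532 (SE 0.125, adjusted p = 0.0048) and not with shEVI1-2531 (0.14, SE 0.125, adjusted p = 0.486). The difference between the shRNAs was 0.39 (SE 0.125, adjusted p = 0.0379), and leaving out any 1 of the 4 shRNA libraries ended that call (0.33 to 0.44, adjusted p = 0.0977 to 0.252), as did library totals (0.26, adjusted p = 0.146) and leaving out the filter on low counts (0.37, adjusted p = 0.0702), so that 5 of 12 alternatives kept it. MYB stood at 168, 115 and 104 CPM at day 3 and at 165, 134.5 and 135 CPM at day 6. All 4 shRNA libraries lay below both NTC libraries on library totals, yet the fitted values of -0.26 with shEVI1-2531 and -0.18 with shEVI1-2532 (adjusted p = 0.251 and 0.330) did not pass, and with TMM the day 6 ratio of shEVI1-2532 turned from -0.28 to 0.07. Between the shRNAs 5 of 8 factors differed (ERG, TAL1, GATA2, LMO2 and RUNX1), where 24.2% of genes did. The shRNAs differ in the MECOM they left and in their sequences, which cannot be told apart.

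**Figure D2:**
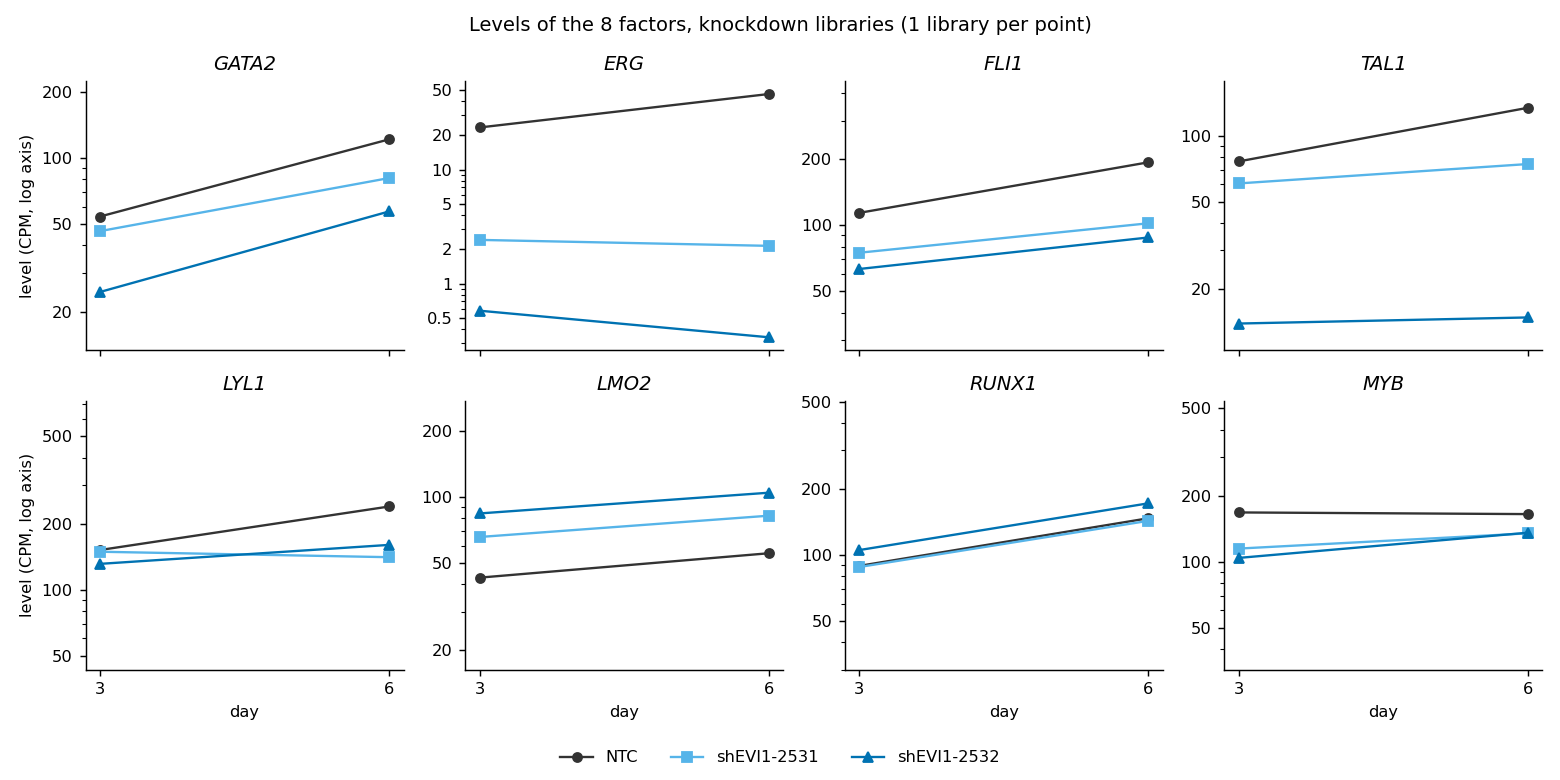
Levels of the 8 factors (CPM, log axis) at day 3 and day 6 for NTC (circles), shEVI1-2531 (squares) and shEVI1-2532 (triangles), with 1 library per point and no error bars. ERG is lower with both shRNAs, TAL1 stands at 13.9 and 14.9 CPM with shEVI1-2532 alone, and LMO2 lies above NTC with both.

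**Figure D3:**
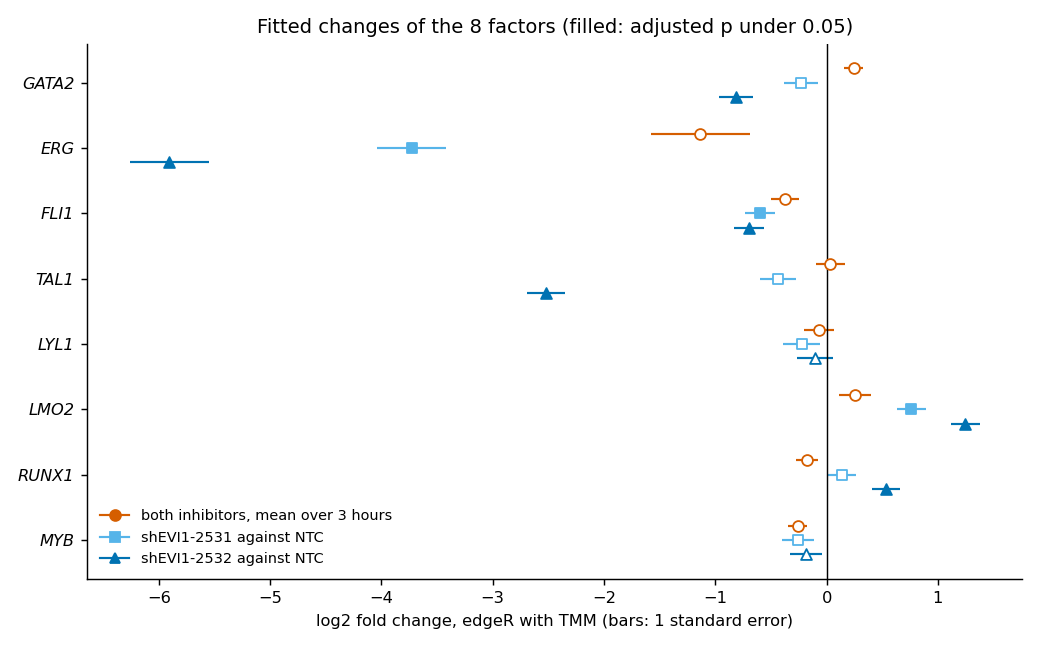
Fitted log2 fold changes of the 8 factors with bars of 1 standard error, for the mean of both inhibitors (circles), shEVI1-2531 (squares) and shEVI1-2532 (triangles), where filled symbols have an adjusted p under 0.05. No inhibitor circle is filled, 3 squares and 6 triangles are, and ERG lies farthest from 0 in each comparison.

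With shEVI1-2532 the make-up of the set held less ERG, TAL1 and GATA2 and more LMO2 than in NTC of the same day. Of the summed level per kb of exon of the 8 factors, ERG made up 2.19% in NTC at day 3, 0.253% with shEVI1-2531 and 0.0690% with shEVI1-2532. TAL1 made up 9.50%, 8.45% and 2.21% of it in the same libraries. LMO2 made up 9.78%, 16.8% and 24.5%. At day 6 the share of LMO2 was 8.31%, 17.7% and 22.9%, and at 48 h it was 10.7% in DMSO, 15.0% with olaparib and 17.3% with talazoparib. LYL1 had the highest share in each of the 16 libraries. None of these shares was tested.

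**Figure D4:**
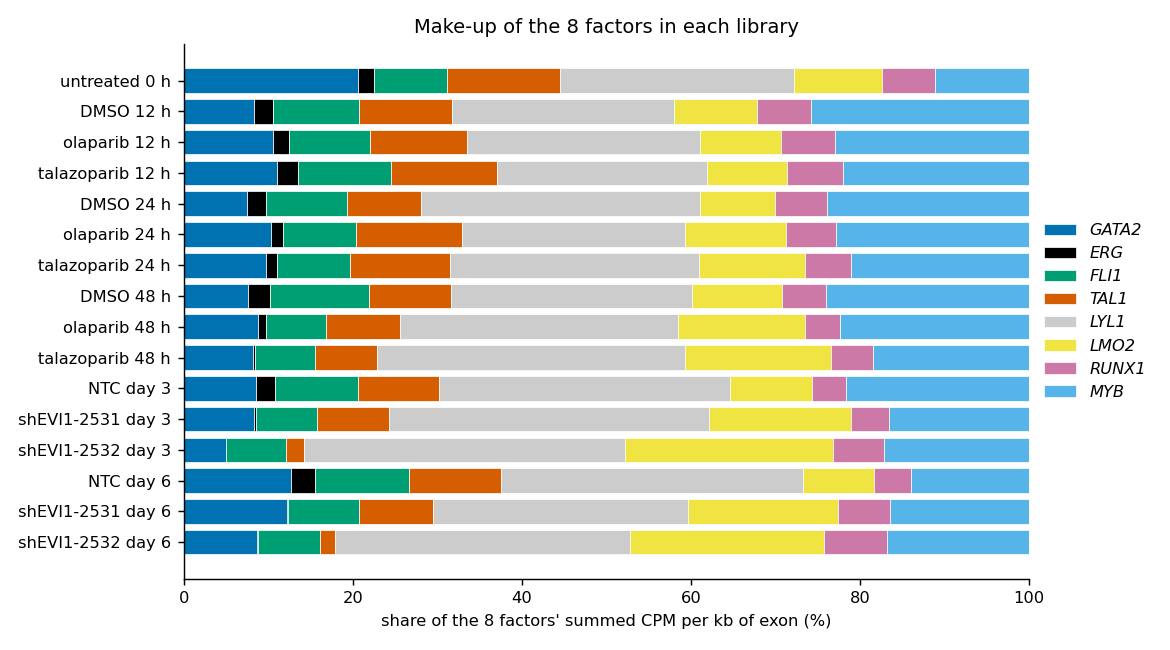
Share of each of the 8 factors in their summed level per kb of exon (percent) in the 16 libraries, as stacked bars with 1 library per bar. The share of LMO2 is 8.31% to 9.78% in NTC and 22.9% to 24.5% with shEVI1-2532, while those of ERG and TAL1 shrink.

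Partners and relatives of the factors were read from lists that were chosen with results of these data known. Among the inhibitors of E proteins, the proteins that keep TAL1 and LYL1 from their partners, ID1, ID2 and ID3 were tested. With both shRNAs and with time on inhibitor 3 of 3 rose, and ID4 was too low to test. Of all genes, 41.1% were called with shEVI1-2532, 17.4% with shEVI1-2531 and 19.8% with time on inhibitor. In the mean inhibitor effect, where 4.17% of all genes were called, 0 of 3 were called. Their adjusted p was 0.306 for ID1, 0.102 for ID2 and 0.236 for ID3. Untreated cells held 72.2, 134 and 37.5 CPM of these genes. At 24 h ID1 and ID3 were below DMSO with olaparib (76.8 and 41.6 against 79.2 and 51.0 CPM) and above it with talazoparib (93.0 and 54.1 CPM). ID2 stood at 15.3, 63.9 and 41.9 CPM in NTC, shEVI1-2531 and shEVI1-2532 at day 3, and at 15.0, 72.3 and 94.9 CPM at day 6. Its log2 fold change was 2.32 with shEVI1-2531 (SE 0.254, adjusted p = 0.00011) and 2.40 with shEVI1-2532 (SE 0.258, adjusted p = 2.0e-05), and its inhibitor effect changed by 1.61 per doubling of hours (SE 0.140, adjusted p = 3.2e-27). ID3 stood at 1.61, 35.5 and 9.59 CPM at day 3 and at 2.89, 38.6 and 68.5 CPM at day 6, and ID1 at 12.6, 66.7 and 19.8 CPM and at 19.9, 70.0 and 72.3 CPM. At 48 h all 3 genes were also at their lowest DMSO level (27.3 CPM for ID1, 19.0 for ID2 and 19.4 for ID3, against 60.9, 39.9 and 32.2 CPM at 12 h), so this 1 control library enters the change with time.

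**Figure D5:**
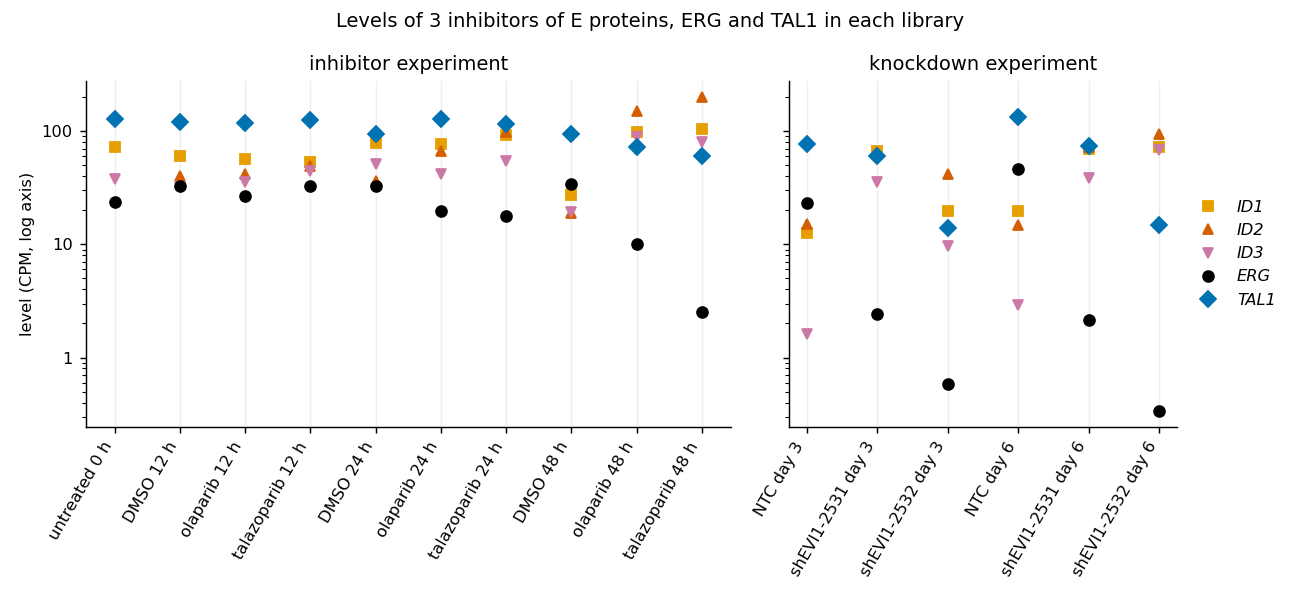
Levels (CPM, log axis) of the E protein inhibitors ID1 (squares), ID2 (upward triangles) and ID3 (downward triangles) beside ERG (circles) and TAL1 (diamonds) in each library, with 1 library per symbol and the inhibitor and knockdown experiments in separate panels. In NTC the ID genes stand at 1.61 to 19.9 CPM and with the shRNAs at 9.59 to 94.9 CPM, whereas ERG goes from 23.4 and 46.1 CPM to 0.338 to 2.42 CPM.

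Of the 15 complex partners 14 were tested. With shEVI1-2532, where 41.1% of all genes were called, 2 rose and 7 fell, with a median log2 change of -0.35 against -0.00031 over all genes tested, and with shEVI1-2531, where 17.4% were called, 1 rose and 2 fell, with a median of -0.10 against 0.0074. The E protein TCF12 fell with both (-1.13, SE 0.155, adjusted p = 0.00012, with shEVI1-2532, and -0.49, SE 0.154, adjusted p = 0.0444, with shEVI1-2531), as did the co-repressor CBFA2T2 (-0.48, adjusted p = 0.0435, and -0.55, adjusted p = 0.0465). Of the most abundant partners, SSBP3, which stabilizes LDB1, fell with shEVI1-2532 (-0.84, adjusted p = 0.00060), the co-repressor SIN3A fell (-0.38, adjusted p = 0.0377), the co-activator EP300 rose (0.53, adjusted p = 0.0084), and SSBP4 did not pass (-0.12, adjusted p = 0.518). With time on inhibitor, where 19.8% of all genes were called, 2 of 14 partners fell (TCF12 and SSBP3) and 0 rose. In the mean inhibitor effect, where 4.17% of all genes were called, 1 of 14 rose and 0 fell. This was ZFPM1, which was named after its value was seen (0.54, adjusted p = 0.0458).

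Of the 12 paralogs 9 were tested in the knockdown. With shEVI1-2532, 1 rose and 4 fell, with a median of -0.90 against -0.00031 over all genes, 41.1% of which were called. This median is the value of GATA3, named after its value was seen, which was not called (adjusted p = 0.279) at a mean of 0.124 CPM. With shEVI1-2531, 1 rose and 1 fell, with a median of -0.39 against 0.0074 over all genes, 17.4% of which were called. ETS2, a relative of ERG and FLI1, fell with both, by 1.42 with shEVI1-2532 (SE 0.143, adjusted p = 1.2e-05) and by 1.34 with shEVI1-2531 (SE 0.142, adjusted p = 9.2e-05) on the log2 scale. ETS1, of the same family, rose with shEVI1-2532 (0.53, adjusted p = 0.0085). RUNX3 rose with shEVI1-2531 (0.74, adjusted p = 0.0025) and did not pass with shEVI1-2532 (-0.05, adjusted p = 0.782), and MYBL2, the cell-cycle relative of MYB, fell with shEVI1-2532 (-1.57, adjusted p = 3.2e-06) and did not pass with shEVI1-2531 (-0.14, adjusted p = 0.505). With time on inhibitor, against 19.8% of all genes called, 1 of 8 tested paralogs rose and 2 fell. Those that fell were ETS2 and MYBL2 (-0.51 and -1.19 per doubling of hours, adjusted p = 0.0010 and 6.3e-17). In the mean inhibitor effect, where 4.17% of all genes were called, 2 of 8 rose and 0 fell. They were RUNX3 (0.58, adjusted p = 0.0371) and GATA1 (0.77, adjusted p = 0.0467), the latter named after its value was seen.

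Of 16 other stem and progenitor transcription factors 15 were tested, MECOM included. With shEVI1-2532, 2 rose and 7 fell, with a median of -0.36 against -0.00031 over all genes, 41.1% of which were called. With shEVI1-2531, 0 rose and 5 fell, with a median of -0.28 against 0.0074 over all genes, 17.4% of which were called. The 5 that fell with both were MECOM, the stem-cell factor HLF, the zinc finger factor ZNF521, the myeloid and lymphoid factor MEF2C and the homeodomain protein HOPX. Of the most abundant in this list, IKZF1 and GFI1 did not pass with shEVI1-2532 (0.34 and -0.13, adjusted p = 0.0526 and 0.479). Nor did they with shEVI1-2531 (0.27 and -0.19, adjusted p = 0.184 and 0.391). NFE2 rose with shEVI1-2532 (0.54, adjusted p = 0.0142) and did not pass with shEVI1-2531 (0.36, adjusted p = 0.130). ZNF521 stood at 8.04, 1.65 and 0.249 CPM in NTC, shEVI1-2531 and shEVI1-2532 at day 3, and at 21.7, 1.81 and 0.139 CPM at day 6. HLF stood at 3.78, 0.419 and 0.0698 CPM at day 3 and at 16.2, 0.254 and 0.0199 CPM at day 6, the last from 2 counts. MECOM, the target, fell by 1.34 with shEVI1-2531 (SE 0.193, adjusted p = 0.00064) and by 3.04 with shEVI1-2532 (SE 0.206, adjusted p = 7.9e-07) on the log2 scale. With time on inhibitor, where 19.8% of all genes were called, 4 of the 15 fell (MECOM, HLF, MEF2C and ZNF521) and 1 rose (NFE2, 0.47 per doubling of hours, adjusted p = 0.0036). In the mean inhibitor effect, where 4.17% of all genes were called, 1 of the 15 rose and 0 fell. This was GFI1B, named after its value was seen (0.66, adjusted p = 0.0230).

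The genes most like each factor were taken as those with the highest Pearson correlation of log2 ratios over the 10 pairs of library and control. The 8990 genes compared had a mean log2 CPM of more than 3. The pairs share controls, so these values are descriptions. They were EVPL (0.991) and DCTN2 (0.991) for ERG, ST8SIA6 (0.989) and CD34 (0.985) for TAL1, and ADGRG3 (0.989) and SVOPL (0.986) for GATA2. For FLI1 they were ANKZF1 (0.979) and TRIM26 (0.976), for LMO2 RAB21 (0.977) and F11R (0.976), and for RUNX1 BABAM2 (0.965) and B4GALT1 (0.960). MYB was followed most closely by RPAP2 (0.961) and SUCO (0.947), and LYL1, with the lowest values, by REEP6 (0.936) and SMIM29 (0.923). Likeness of pattern did not mean likeness of size, since the log2 ratios of DCTN2 ranged from -0.41 to 0.10 only, and those of EVPL from -5.68 to 0.20.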

How the data were processed

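RNA was extracted and made into libraries with the TruSeq Stranded mRNA kit and sequenced as 100 bp paired ends, per the labels. The authors deposited a table of raw counts and TPM per gene for every library. The submitters' processing notes name STAR, Picard and featureCounts and the builds hg38 and GRCh38, without versions. The annotation and the strand setting were not given in the sources used here. The deposited TPM were used only to check the counts. Libraries were grouped by their labels, and the deposited tables of shEVI1-2531 carry another clone number than the label does.

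CPM are counts over the library total, and levels per length use the exon union of GENCODE 29. Ratios of 2 libraries have exact binomial 95% intervals, which cover counting error only, and the least level a library can show (3 counts) was 0.0249 to 0.0536 CPM. A gene was kept if 3 of 9 inhibitor libraries, or 2 of 6 knockdown libraries, had 10 counts or more, and was fitted with TMM and the quasi-likelihood test of edgeR 4.0.16 in R 4.3.3. P-values were adjusted after Benjamini-Hochberg over all genes tested, with a threshold of 0.05. The inhibitor model held the hour and both inhibitors (4 residual degrees of freedom), and a further one slopes on log2 hours, centred at 24 h (2). The knockdown model held the day and NTC, shEVI1-2531 and shEVI1-2532 as 3 groups (2). Hours and days thus stand in for replicates. The p-values rest on how far these depart from each other, a spread that edgeR shares in part between genes. The untreated library entered ratios only. The text names the 8 genes, MECOM, genes overlapping a member, per list the 4 with the highest level and those called with both shRNAs, and the 2 genes most like each member. The members and lists were chosen with earlier results of these data known.

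Alternatives were DESeq2 1.42.0, upper quartile scaling, library totals, other filters, models without hour or day, each hour or knockdown library left out, and other groupings. Figures were drawn with matplotlib 3.10.9.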

Additional observations from a re-analysis of the deposited data

Results flagged for a closer look

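With edgeR's quasi-likelihood test of shEVI1-2532 against shEVI1-2531, 5 factors differed between the shRNAs. On the log2 scale the difference was -2.18 for ERG, -2.09 for TAL1, -0.58 for GATA2, 0.49 for LMO2 and 0.39 for RUNX1, and the shRNA that left less MECOM had the larger change from NTC in each of them. The effect of the inhibitors differed between hours for ERG, with a change of -1.18 per doubling of hours, and for LMO2, with a change of 0.36.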

How the results depend on the processing

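No paired analysis was possible because the labels give no replicate numbers and each condition has 1 library, and the hour or day is already a term of each model. Leaving out an hour could not be fitted for the change with time, since no residual degrees of freedom are left. Genes called for the mean inhibitor effect numbered 718 (544 higher, 174 lower), but 3416 with DESeq2, 468 on library totals, 3728 without the filter, 343 with at least 50 counts, 16 without the hour, 23 with olaparib alone, 4 with talazoparib alone and 0 to 3768 without 1 hour. Members called there numbered 0, but 1 with DESeq2 and without the filter and 0 to 1 without 1 hour. For the change with time, 3412 genes (1721 higher, 1691 lower) became 963 with the inhibitors pooled, and the split became 1091 higher and 2424 lower on library totals. The 2 members called became 1 without the filter and 0 with the inhibitors pooled. For shEVI1-2532, 7648 genes (3942 higher, 3706 lower) became 3536 without the day, 308 with the shRNAs as 1 group and 2360 higher against 5957 lower on library totals, and 6 members became 3 and 1 in the first and second of these. For shEVI1-2531, 3235 genes (1765 higher, 1470 lower) became 565 without the day, 1049 higher against 2270 lower on library totals and 1830 to 3885 without 1 library, and 3 members became 1 without the day. Between the shRNAs, 4505 genes (2271 higher, 2234 lower) became 921 without the day, 1524 higher against 3000 lower on library totals and 2861 to 4972 without 1 library, and 5 members became 3 on library totals, 2 without the day and 2 to 5 without 1 library.

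The values that changed sign belonged to members not called in the respective test. On library totals these were TAL1 in the mean effect (-0.054), MYB in the change with time (-0.086), RUNX1 with shEVI1-2531 (-0.028), and LYL1 (-0.011) and MYB (-0.063) between the shRNAs. Leaving out 1 hour gave -0.13 (without 24 h) to 0.20 for TAL1 and -0.22 to 0.077 (without 24 h) for LYL1 in the mean effect. Leaving out 1 library gave -0.40 to 0.17 (without NTC at day 6) for LYL1 and -0.37 to 0.0083 (without shEVI1-2532 at day 3) for MYB with shEVI1-2532. With shEVI1-2531 it gave -0.45 to 0.0020 for GATA2 and -0.53 to 0.089 for LYL1 (both highest without shEVI1-2531 at day 6, and LYL1 0.058 without NTC at day 6). Between the shRNAs it gave -0.24 to 0.012 (without shEVI1-2531 at day 3) for FLI1, -0.20 (without shEVI1-2531 at day 6) to 0.43 for LYL1 and -0.12 (without shEVI1-2532 at day 6) to 0.26 for MYB. Of the other fold changes of members under alternatives, 396 kept direction and call, 33 lost and 12 gained the call, and the cause was not tested.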
